A study of Mus musculus with 9 samples.

Results

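Callus RNA from mice given SR-717 was compared with callus RNA from mice given H-151, 3 libraries against 3, for the programs that lie outside osteoclast differentiation, NF-κB signaling and cytosolic DNA sensing. The members of the comparison are the genes of the whole table, of which 14151 of 22054 had enough counts to be tested, in 6 of the 9 libraries of the series. The remaining 3 libraries came from mice given PBS and entered only as a reference for levels. Male C57BL/6J mice, 7 weeks old according to the sample labels, had a femoral fracture and were injected into the peritoneum once a day for a week with 200 μl containing 750 nmol of H-151, 30 mg/kg of SR-717, or PBS, and callus was taken on day 7. Every group therefore carried the fracture and the injections, no unfractured bone was part of the comparison, and the 2 drugs were given on different dose scales. The labels call the 3 samples of a group separate biosamples without saying whether each was 1 mouse, so the p-values measure the spread between these samples, which may in part be technical.

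STING is the adaptor that relays cytosolic DNA sensing to type I interferon and inflammatory genes. H-151 binds STING covalently and blocks it, and SR-717 activates it in the manner of its natural ligand cGAMP. An early callus is a mixture: chondrocytes lay down a type II collagen matrix that later mineralizes, osteoblasts build woven bone on type I collagen, marrow supplies blood cells, and the torn muscle around the bone regenerates and re-expresses embryonic and neonatal myosins.

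One library has to be described before any result. SR-717 replicate 1 lay at 99.3 on the first principal component of log2 CPM, which held 46.8% of the variance over the 9 libraries, while PBS replicate 1 lay at 38.3 and the other 7 between −28.7 and −3.81. Its correlation with the other 5 libraries of the comparison was 0.892 to 0.922 across genes, against 0.965 to 0.985 between those 5. Library totals were 17157465 to 21573834 in the SR-717 group, 18545304 to 19758538 in the H-151 group and 16987398 to 23272480 in the PBS group, and SR-717 replicate 1, with 20743016, lay inside that range. Bone and cartilage genes were present in every library: the type I collagen gene Col1a1 had 20959 to 40957 normalized CPM (counts scaled to a common library total) over the 6 libraries, and the type II collagen gene Col2a1 had 49.7 CPM in SR-717 replicate 1 and 2549 to 7172 in the other 5. Values without SR-717 replicate 1 stand beside the genes and lists described in most detail. In bulk RNA, fewer cells of a type and less RNA per cell cannot be told apart.

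The smallest p of the comparison was that of Myh8, the neonatal skeletal muscle myosin heavy chain, which was 1.95-fold higher with SR-717 and even across its 3 libraries. Sox5, a transcription factor that chondrocytes need for their matrix genes, was lower in every SR-717 library. The MHC class I genes H2-K1 and H2-Q6 and the shared light chain gene B2m were higher in every SR-717 library, most of all in replicate 1. For H2-K1 and B2m the gap to the H-151 libraries was narrow. The medians of the cartilage and red cell lists were −0.97 and −1.01 on the log2 scale and −0.47 and −0.46 without SR-717 replicate 1, while that of the neutrophil list changed sign. In the oxidative phosphorylation, lipid and cell cycle lists 0 genes passed the thresholds.

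Of the 14151 genes, 52 were higher with SR-717 (0.367% of those tested) and 55 were lower (0.389%) at an unadjusted p under 0.05 with a fold change of at least 1.5, the thresholds the study states. The log2 fold change was positive in 7563 of the 14151. These figures are the background for the counts of list members below. After Benjamini-Hochberg adjustment, edgeR's quasi-likelihood test called 0 genes at 0.05 (smallest adjusted p = 0.996), so the genes below passed an unadjusted threshold only. In that test 146 genes (1.03%) had an unadjusted p under 0.05, a smaller share than this threshold gives by chance alone. DESeq2's Wald test called 1 gene, Myh8, at an adjusted p under 0.05 (0.00707% of those tested). The number of higher genes was 19 without H-151 replicate 2, 214 without SR-717 replicate 2 and 544 without SR-717 replicate 3. The number of lower genes was 36 without H-151 replicate 1, 98 without H-151 replicate 3, 170 without SR-717 replicate 2 and 117 without SR-717 replicate 3. Without SR-717 replicate 1 the counts were 71 higher and 79 lower, and 14 and 27 of these genes were shared with the calls from all 6 libraries.

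A second description asked only whether the groups overlap. In 334 genes (2.36%) the lowest SR-717 library lay above the highest H-151 library, and in 384 (2.71%) the highest SR-717 library lay below the lowest H-151 library. Assigning the libraries to groups at random would on average give larger shares, so these counts alone do not set the groups apart. The separation was mostly narrow: the median gap was 0.04 on the log2 CPM scale for the genes above and 0.08 for those below, and 65 and 115 of them had a fold change of at least 1.5. The balance of directions depended on the scale, since 46.5% of the genes without overlap lay above in CPM, 49.4% with DESeq2's size factors and 21.8% in the deposited TPM values, where the counts were 127 above and 456 below. The median log2 fold change of all tested genes was 0.02 in CPM and −0.05 in TPM. Both criteria together were met by 31 higher and 49 lower genes, and these are the points in colour outside the dashed lines in the plot of all genes.

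**Figure D1:**
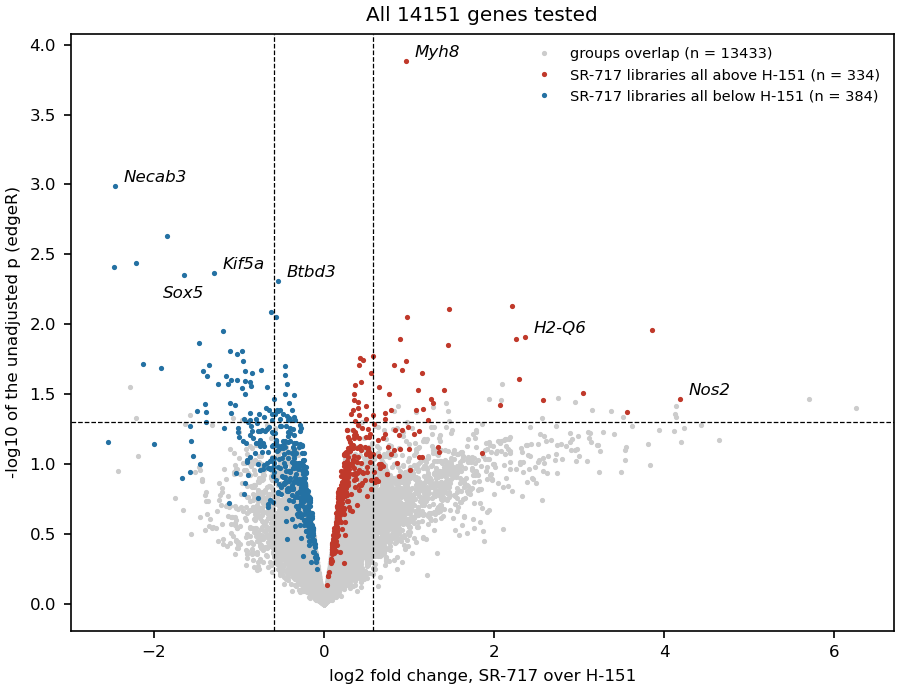
Each point is 1 of the 14151 genes tested, by its log2 fold change between SR-717 and H-151 (horizontal axis) and the −log10 of its unadjusted p in edgeR's test (vertical axis). Dashed lines mark a p of 0.05 and a 1.5-fold change, colours mark the 334 and 384 genes whose groups do not overlap, and Myh8 is the highest point.

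Myh8 (ENSMUSG00000055775) lies on chromosome 11 from 67277124 to 67308634 on the plus strand (GRCm38), in a cluster of similar skeletal myosin genes, so reads shared between copies make its count less certain than that of a single gene. It stood at 78.4, 75.4 and 81.2 CPM in the SR-717 libraries and at 42.7, 37.1 and 40.5 in the H-151 libraries. The 2 groups were tight and far apart, with 78.3 ± 2.88 CPM (SD, n = 3) against 40.1 ± 2.86 (SD, n = 3). The PBS libraries spanned both, at 61.4, 52.2 and 18.7 CPM. The log2 fold change was 0.97 (standard error 0.12, unadjusted p = 1.31e-04 and adjusted p = 0.996 in edgeR). Leaving out any 1 library kept it between 0.91 and 1.01, and without SR-717 replicate 1 it was 0.97. DESeq2's Wald test gave an adjusted p of 7.4e-11. In the deposited TPM values, the log2 ratio of the group means was 0.89.

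The promoter of Myh8 is shown beside that of its embryonic neighbour Myh3, whose groups overlapped, because the pair are the myosins that regenerating fibres use first. Both sequences run from 250 bases before to 50 after the gene start on the plus strand and are RefSeq's for GRCm38.p6, at chr11:67276874-67277173 for Myh8 and chr11:67078050-67078349 for Myh3. Capitals mark E-boxes (CANNTG, the motif that myogenic bHLH factors bind) and TATA motifs (TATAAA, or TTTATA where it lies on the other strand).
Myh8: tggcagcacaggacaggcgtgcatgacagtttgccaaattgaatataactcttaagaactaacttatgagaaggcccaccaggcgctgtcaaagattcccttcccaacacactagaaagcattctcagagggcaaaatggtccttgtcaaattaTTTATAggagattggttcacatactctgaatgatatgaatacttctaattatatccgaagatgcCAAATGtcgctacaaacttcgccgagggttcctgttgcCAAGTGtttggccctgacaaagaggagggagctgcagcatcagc
Myh3: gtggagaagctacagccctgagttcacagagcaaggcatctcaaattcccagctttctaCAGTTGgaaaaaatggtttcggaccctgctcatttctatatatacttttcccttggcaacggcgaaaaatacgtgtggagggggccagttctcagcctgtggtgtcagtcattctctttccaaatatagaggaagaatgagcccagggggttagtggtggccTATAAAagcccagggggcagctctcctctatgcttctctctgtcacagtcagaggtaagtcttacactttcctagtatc
The window of Myh8 held 2 E-boxes and that of Myh3 held 1, and each held 1 TATA motif. Of 27025 promoters of the same length, 72.1% held an E-box and 14.2% a TATA motif on either strand, so the matches are a description of these windows.

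Around Myh8, the regenerating muscle list had 17 of 19 tested genes with a positive log2 fold change and a median of 0.21, beside 0.02 for all tested genes. Only Myh8 of the list passed the thresholds. Myh3 had 22.3, 31.2 and 44.9 CPM with SR-717 and 30.4, 27.5 and 31.6 with H-151, with SR-717 replicate 1 lowest and replicate 3 highest of all 6. Actc1, the cardiac actin of immature fibres, had 191, 280 and 554 CPM with SR-717 and 211, 309 and 211 with H-151. Its high value was again SR-717 replicate 3. Myf6, a myogenic regulator of maturing fibres chosen here after its values were seen, had 9.94, 19.6 and 18.6 CPM with SR-717 and 9.75, 9.39 and 13.9 with H-151. The satellite cell factors Myod1 and Pax7 had log2 fold changes of 0.27 (standard error 0.28) and 0.44 (standard error 0.56), both smaller than those errors. The list median was 0.35 without SR-717 replicate 1 and 0.0023 without SR-717 replicate 3, so it moved with replicate 3, without which Myh8 was at 0.94.

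**Figure D2:**
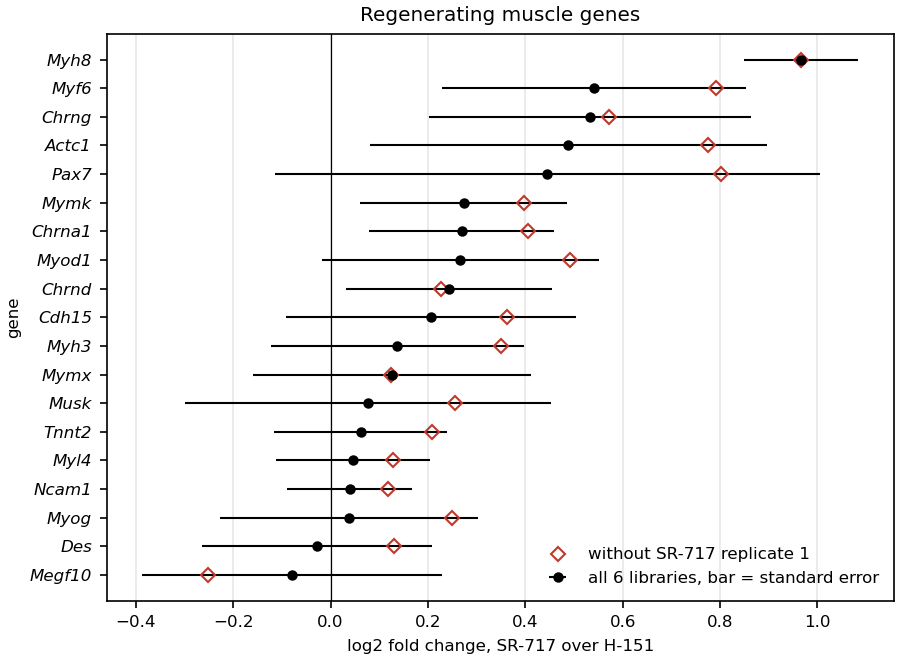
Log2 fold change of SR-717 over H-151 (horizontal axis) for the 19 tested regenerating muscle genes (vertical axis). Points use all 6 libraries with their standard errors, and open diamonds leave out SR-717 replicate 1. Myh8, at 0.97, has the shortest error bar and the same value either way.

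Of the 40 sarcomere genes, 26 had a positive log2 fold change, the median was 0.08, and 0 passed the thresholds, but the mean level of the list was lower with SR-717 by 0.08 on the log2 CPM scale because SR-717 replicate 1 was low. The skeletal actin gene Acta1 had 2939, 6352 and 7995 CPM with SR-717 and 3687, 6613 and 5271 with H-151. The fast regulatory light chain Mylpf had 1366, 2502 and 3285 against 1584, 2295 and 2194. In both, replicate 1 of each group was the lowest. Without SR-717 replicate 1, 34 of the 40 were positive with a median of 0.36. How much muscle was taken with each callus is not recorded in the labels, and the summed level of the 40 genes ran from 19556 to 49840 CPM in the SR-717 libraries and from 24476 to 39457 in the H-151 libraries, so its part in the Myh8 difference was not tested. Csrp3, a Z-disc protein of striated muscle that no list held and that was chosen after its values were seen, ran opposite to Myh8, with 9.89, 20.3 and 45 CPM with SR-717 and 49.6, 55.7 and 106 with H-151. Its groups did not overlap, and its log2 fold change was −1.49 (standard error 0.59), −1.11 without SR-717 replicate 1 and −1.07 without H-151 replicate 3, where its unadjusted p in edgeR was 0.14. The summed level of the 40 sarcomere genes differed 2.55-fold between the highest and the lowest SR-717 library. Myh8 lay between 75.4 and 81.2 CPM in the 3 SR-717 libraries. Whether mature sarcomere genes and this neonatal myosin follow the amount of muscle alike was not tested.

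Among 20 tested cartilage matrix genes, 1 (Sox5) passed the thresholds and lacked overlap. Of the 20, 19 had a negative log2 fold change, with a median of −0.97, and 18 were negative with a median of −0.47 without SR-717 replicate 1. Their summed level was 1178, 11883 and 7562 CPM in the SR-717 libraries, 14525, 13311 and 8114 in the H-151 libraries, and 3000, 20175 and 12725 in the PBS libraries. SR-717 replicate 2 lay between the H-151 libraries, replicate 3 just under the lowest of them and replicate 1 far under it. Comp, a cartilage oligomeric matrix protein, had 78.8, 871 and 671 CPM with SR-717 against 1113, 1072 and 599. Its groups overlapped through SR-717 replicates 2 and 3. Of the 10 hypertrophic cartilage genes 0 passed the thresholds, and all 10 were negative, with a median of −0.43 that became −0.03 without SR-717 replicate 1. Col10a1, the collagen of hypertrophic chondrocytes, had 8.86, 1679 and 403 CPM with SR-717 and 1626, 1306 and 1001 with H-151, so the highest of the 6 libraries was also an SR-717 library.

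Sox5, the member of the cartilage list that passed the thresholds, changed little without SR-717 replicate 1. It had 2.05, 2.43 and 1.79 CPM with SR-717 and 4.63, 4.89 and 10.2 with H-151, and 3.71, 3.05 and 2.88 with PBS. All 3 SR-717 libraries lay below all H-151 and all PBS libraries. The log2 fold change was −1.65 (standard error 0.38, unadjusted p = 0.00445, adjusted p = 0.996 in edgeR), −1.63 without SR-717 replicate 1 and −1.18 without H-151 replicate 3, its highest library. Its partners Sox6 and Sox9, which act with it on the Col2a1 and Acan genes, had log2 fold changes of −0.54 and −0.92, with overlapping groups. Col27a1, a fibrillar collagen of cartilage, had 49.1, 114 and 108 CPM with SR-717 and between 147 and 153 in the H-151 libraries. Its groups did not overlap, yet with all 6 libraries its unadjusted p was 0.0573 in edgeR. Without SR-717 replicate 1 its log2 fold change was −0.43 with an unadjusted p of 0.00608. Prkg2, a cGMP-dependent kinase of growth plate chondrocytes, had 1.79, 7.81 and 5.67 CPM with SR-717 and 12.3, 10.4 and 11.6 with H-151, again without overlap, and its log2 fold change was −1.17 (standard error 0.50), or −0.76 without SR-717 replicate 1.

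The bone and fibrous matrix lists had small median differences between the 2 groups, with a wider spread of genes and libraries. Log2 fold changes ran from −0.82 to 0.26 for bone genes and from −0.91 to 0.42 for fibrous genes. The summed level of the bone list was 45947, 80084 and 89902 CPM with SR-717 and 71486, 67327 and 80473 with H-151. Of 20 bone matrix and osteoblast genes, 4 were positive with a median of −0.12, and 16 were positive with a median of 0.19 without SR-717 replicate 1, so the sign of the list belonged to that library. Col1a1 had 20959, 34662 and 40957 CPM with SR-717 and 31467, 26292 and 32264 with H-151. In the fibrous and basement membrane list, 15 of 40 were positive with a median of −0.10, and 1 passed the thresholds. That gene was Tnmd, tenomodulin of tendon and ligament cells, with 37.2, 72 and 93.3 CPM with SR-717 and 110, 148 and 109 with H-151. Its groups did not overlap and its log2 fold change was −0.86 (standard error 0.34), or −0.57 without SR-717 replicate 1. Ogn, the small proteoglycan osteoglycin, had 129, 145 and 108 CPM with SR-717 and 173, 163 and 186 with H-151. It too was lower in every SR-717 library, by −0.45 (standard error 0.15) and by −0.46 without SR-717 replicate 1, a change under 1.5-fold.

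Enzymes that act on the matrix gave 1 higher gene past the thresholds of 26 tested, beside 0.367% of all tested genes. Mmp10, stromelysin-2, had 18.9, 2.62 and 2.03 CPM with SR-717 and 1.38, 0.741 and 1.82 with H-151. The groups did not overlap, but the log2 fold change of 2.58 became 0.83 without SR-717 replicate 1. The list median was 0.14 with all libraries and −0.09 without that library. Mmp9, the gelatinase of osteoclasts and neutrophils, had the highest TPM of the list and overlapped, at 2027, 2895 and 2847 CPM against 2217, 1908 and 2936. Pappa, a protease that releases insulin-like growth factor from its binding protein, was tighter: 10, 8.98 and 10.6 CPM with SR-717 and 14.5, 15.3 and 14.1 with H-151. Its log2 fold change was −0.57 (standard error 0.15) with all 6 libraries and −0.58 without SR-717 replicate 1, which is just short of 1.5-fold. The PBS libraries of Pappa, at 14.9, 12 and 14.9 CPM, lay above every SR-717 library.

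**Figure D3:**
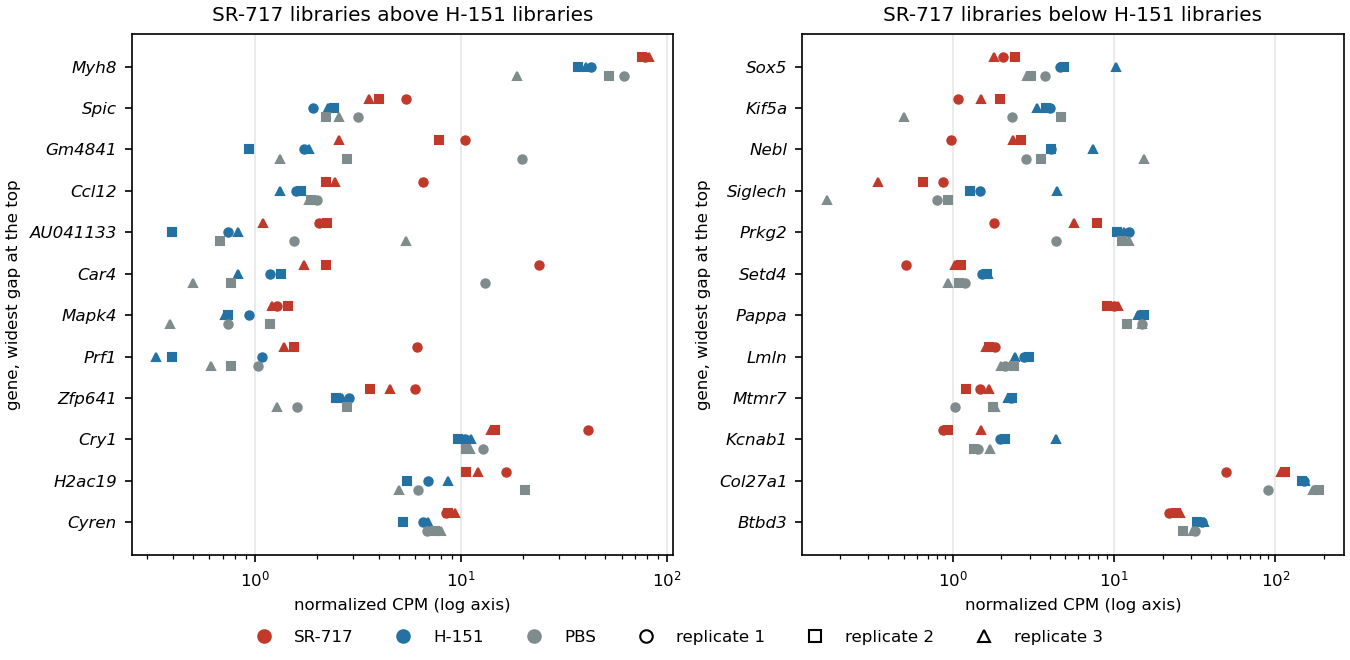
Normalized CPM (log axis) of the 12 genes in each direction with the widest gap from one group to the other, among genes with a mean of at least 1 CPM, with the widest gap at the top. Colours are the groups and marker shapes the replicate numbers. The PBS libraries (grey) often lie between the groups or spread across both, as they do for Myh8 from 18.7 to 61.4.

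Of 21 erythroid genes 0 passed the thresholds. All 21 were negative, with a median log2 fold change of −1.01, and 20 of 21 were negative with a median of −0.46 without SR-717 replicate 1. Their summed level was 841, 8447 and 3682 CPM with SR-717, 8376, 14706 and 3962 with H-151, and 464, 10161 and 1490 with PBS. Replicate 2 was the highest library in each of the 3 groups, and SR-717 replicate 1 and PBS replicates 1 and 3 were the lowest libraries of the series. The adult globin gene Hbb-bs showed the same order, with 333, 2960 and 1326 CPM with SR-717 and 2761, 5563 and 1439 with H-151, and globin copies share reads, which makes the count of any 1 copy uncertain. Neutrophil granule genes, with 0 past the thresholds, were positive in 24 of 24 with a median of 0.87, and in 7 of 24 with a median of −0.32 without SR-717 replicate 1. S100a9, a calcium-binding protein that neutrophils hold in bulk, had 5201, 1016 and 764 CPM with SR-717 and 1203, 1084 and 379 with H-151. Only SR-717 replicate 1 was outside the H-151 range.

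The B lineage list had 7 of 23 genes positive and a median of −0.45. It had 1 lower gene past the thresholds, beside 0.389% of all tested genes. That gene was Ms4a1, which encodes CD20, with 0.154, 0.608 and 0.174 CPM with SR-717 and 1.23, 1.09 and 0.552 with H-151, low in all libraries and overlapping by 1 of them. The list median was −0.18 without SR-717 replicate 1, −1.35 without SR-717 replicate 2 and 0.07 without H-151 replicate 2. Megakaryocyte and platelet genes had a median of −0.26 (−1.35 without SR-717 replicate 2), and adipocyte genes of −0.15 (−0.03 without SR-717 replicate 1). That of mast cell and eosinophil genes was −0.13 (0.01 without SR-717 replicate 1), with 0 genes past the thresholds in the 3 lists. Summed levels of the B lineage list were 592, 485 and 364 CPM with SR-717 and 458, 526 and 334 with H-151. Those of the megakaryocyte list were 2573, 1402 and 1230 against 1635, 1509 and 1245. In both lists these sums overlapped between the groups, and SR-717 replicate 1 had the highest sum, unlike the negative medians. Hdc, histidine decarboxylase, had 431 CPM in SR-717 replicate 1 and 7.18 to 41.5 in the other 5 libraries. Siglech, a surface lectin of plasmacytoid dendritic cells, lay outside these lists and was lower without overlap: 0.871, 0.655 and 0.347 CPM with SR-717 and 1.48, 1.28 and 4.42 with H-151. Its log2 fold change was −1.91 (standard error 0.62) and −2.21 without SR-717 replicate 1, but −1.13 without H-151 replicate 3, where its unadjusted p in edgeR was 0.061.

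Of 24 MHC class I and II genes, 5 passed the thresholds as higher with SR-717, beside 0.367% of all genes. Without overlap, 4 lay above, beside 2.36% of all genes. The log2 fold change was positive in 24 of 24, with a median of 0.82. H2-K1, a classical class I heavy chain, had 1535, 623 and 486 CPM with SR-717 and 476, 324 and 303 with H-151. B2m, the light chain that all class I molecules share, had 1823, 825 and 611 against 608, 464 and 471. In both genes every SR-717 library lay above every H-151 library, with replicate 1 at more than the level of the other SR-717 libraries together. The gaps were narrow, at 0.03 for H2-K1 and 0.007 for B2m on the log2 CPM scale. The PBS libraries had 595, 503 and 290 CPM of H2-K1 and 895, 393 and 536 of B2m, so PBS replicate 1 lay above SR-717 replicate 3 in both. H2-Q6 had 122, 41.6 and 21.4 CPM with SR-717 and 17.8, 9.04 and 8.95 with H-151, also without overlap. H2-Q4 and H2-Q7, the remaining pair past the thresholds, overlapped by 1 library. The heavy chain genes are near copies of one another, so reads may be split between them. Without SR-717 replicate 1 the log2 fold change was 0.59 for H2-K1 (1.26 with it), 0.48 for B2m (1.08) and 1.40 for H2-Q6 (2.37), and the list median was 0.17 with 16 of 24 positive. The class II genes H2-Aa, H2-Ab1, H2-Eb1 and Cd74 were then at −0.04, −0.20, −0.04 and −0.04. The interferon response list, at 0.67 with 33 of 33 positive, was at −0.11 with 6 of 33 positive without SR-717 replicate 1. With all 6 libraries, 1 of its genes passed the thresholds as higher, and 0 of them lay above without overlap.

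The T and NK cell list was positive in 22 of 23 with a median of 0.98, and in 18 of 23 with a median of 0.31 without SR-717 replicate 1. Prf1, perforin of cytotoxic cells, was its 1 member past the thresholds, beside 0.367% of all tested genes. It had 6.1, 1.54 and 1.39 CPM with SR-717 and 1.08, 0.395 and 0.331 with H-151. No libraries overlapped, and the log2 fold change was 2.30 (standard error 0.78), or 1.26 without SR-717 replicate 1. Macrophage genes were positive in 17 of 20 with a median of 0.49, and of 0.11 without that library. Csf1r, the receptor of the macrophage growth factor, had 604, 370 and 372 CPM with SR-717 and 335, 269 and 327 with H-151, without overlap, and its log2 fold change was 0.53 (standard error 0.24, unadjusted p = 0.064 in edgeR), or 0.26 without SR-717 replicate 1. Spic, a transcription factor of iron-recycling macrophages that no list held, had 5.43, 3.98 and 3.59 CPM with SR-717 and 1.92, 2.42 and 2.27 with H-151. Its log2 fold change was 0.97 (standard error 0.26), and 0.78 without SR-717 replicate 1. Ccl12, a chemokine for monocytes, had 6.56, 2.2 and 2.43 CPM against 1.58, 1.68 and 1.33, and its log2 fold change went from 1.28 to 0.60 without SR-717 replicate 1.

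**Figure D4:**
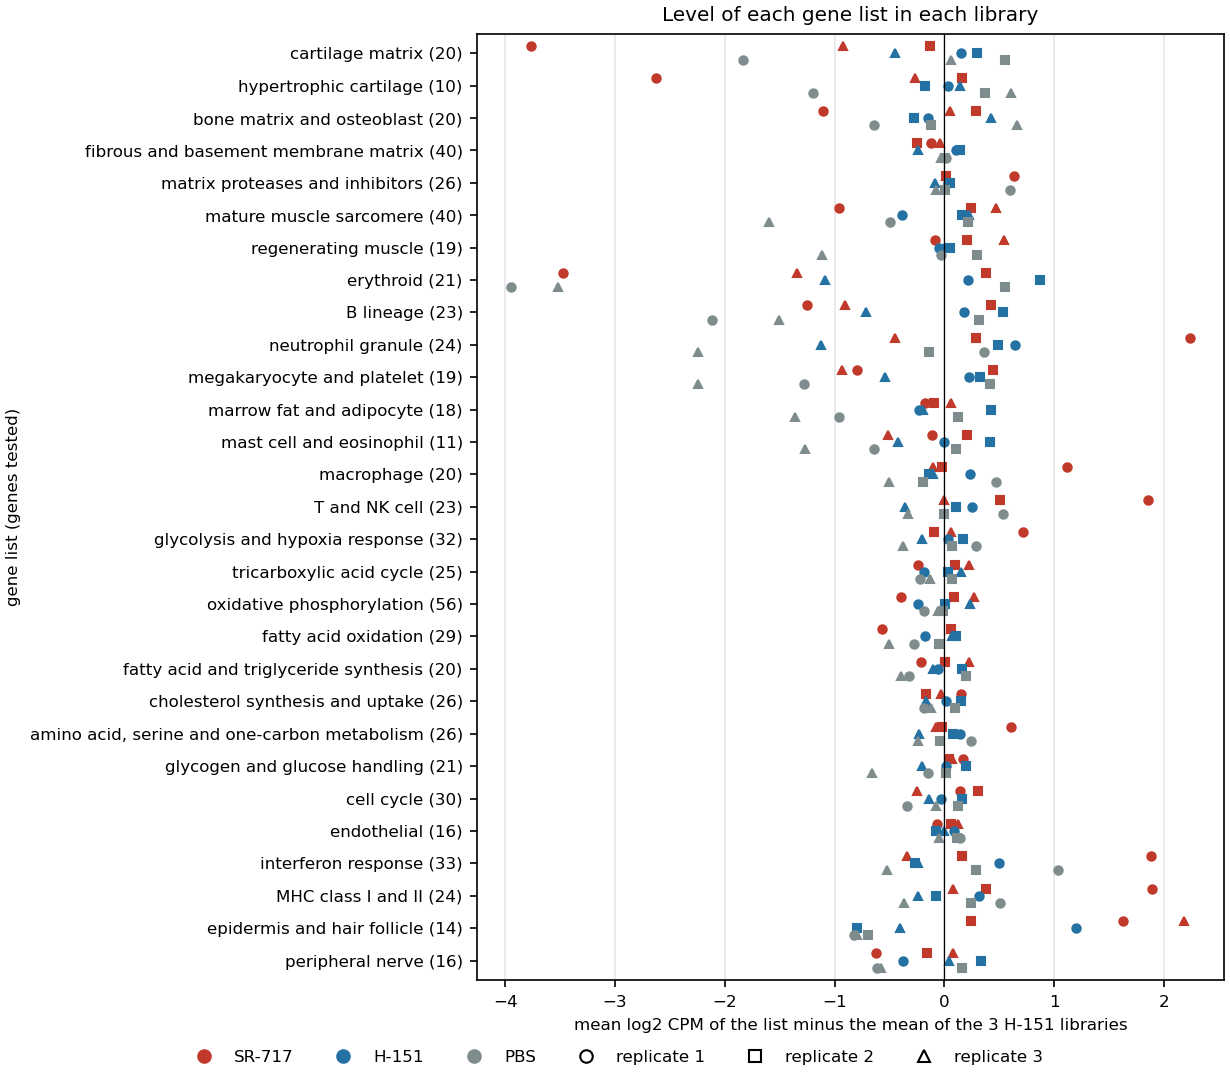
Mean log2 CPM of each of the 29 gene lists in each library, minus the mean of the 3 H-151 libraries (horizontal axis), with the number of genes tested in parentheses. SR-717 replicate 1 (red circles) is the lowest SR-717 library for cartilage and erythroid genes and the highest for neutrophil, T and NK cell, interferon and MHC genes, and PBS replicate 1 (grey circles) is low for cartilage and erythroid genes as well.

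Of the 56 oxidative phosphorylation genes 0 passed the thresholds. They had log2 fold changes between −0.18 and 0.28 with a median of −0.02, and without SR-717 replicate 1 a median of 0.16 with 53 of 56 positive. Atp5b, the catalytic subunit of ATP synthase, had 813, 1187 and 1308 CPM with SR-717 and 952, 1249 and 1149 with H-151. Glycolysis and hypoxia genes were positive in 26 of 32 with a median of 0.28, and in 14 of 32 with a median of −0.03 without SR-717 replicate 1. Gapdh had 3475, 2766 and 3346 CPM with SR-717 and 2406, 3036 and 2424 with H-151. The 1 gene of this list past the thresholds went the other way: Car12, a membrane carbonic anhydrase, had 10.3, 13.1 and 12.8 CPM with SR-717 and 21.1, 36 and 16.4 with H-151. Its groups did not overlap, its PBS libraries had 25.9, 18.4 and 21.6 CPM, and its log2 fold change was −1.02 (standard error 0.31), or −0.92 without SR-717 replicate 1 and −0.63 without H-151 replicate 2, its highest library. Car4, another membrane carbonic anhydrase, was higher without overlap at 23.9, 2.2 and 1.74 CPM against 1.18, 1.33 and 0.829. Its difference was carried by SR-717 replicate 1, as its log2 fold change went from 3.05 to 0.82 without it.

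In the remaining metabolic lists 0 genes passed the thresholds. The medians were 0.05 for the tricarboxylic acid cycle, 0.03 for fatty acid and triglyceride synthesis and 0.04 for amino acid and one-carbon metabolism, each with the opposite sign in TPM (−0.02, −0.02 and −0.05). Without SR-717 replicate 1 the tricarboxylic acid cycle median was 0.16, with 23 of 25 genes positive in place of 16, and those of fatty acid synthesis and amino acid metabolism were 0.03 and −0.01. Fatty acid oxidation had a median of −0.08 with 7 of 29 positive, and of 0.08 with 22 of 29 positive without that library, so its sign changed. The median of cholesterol synthesis and uptake was −0.03 with it and −0.06 without it, and that of glycogen and glucose handling 0.09 and 0.01. Insig1, a regulator that holds the sterol sensor in the endoplasmic reticulum, was lower without overlap at 32.9, 36.6 and 37.7 CPM against 40.2, 44.2 and 43.5. Msmo1, a sterol oxidase of the same list, was higher at 33, 28.9 and 29.1 against 26.2, 28.3 and 22.2. Both separations were small, and without SR-717 replicate 1 the log2 fold changes were −0.20 for Insig1 (−0.25 with it) and 0.18 for Msmo1 (0.25). Over all 1368 tested genes that the deposited annotation places in a KEGG metabolism class, a grouping added after values were seen, 46 (3.36%) lay above without overlap and 32 (2.34%) below, beside 2.36% and 2.71% of all tested genes. The thresholds were passed by 4 higher genes (Car4, Nos2, Tst and Ugt1a1) and 4 lower genes (Car12, Cyp46a1, Dgki and Mtmr7), the names following from the counts, beside 0.367% and 0.389% of all tested genes, so the class held no more of them than the table at large. Nos2, the inducible nitric oxide synthase, had 326, 7.86 and 8.85 CPM with SR-717 and 7.29, 5.73 and 5.69 with H-151, and its log2 fold change went from 4.19 to 0.42 without SR-717 replicate 1. Cell cycle genes had a median of 0.06 in CPM and −0.02 in TPM, endothelial genes 0.09, and peripheral nerve genes −0.08, or 0.07, 0.15 and −0.02 in CPM without SR-717 replicate 1.

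**Figure D5:**
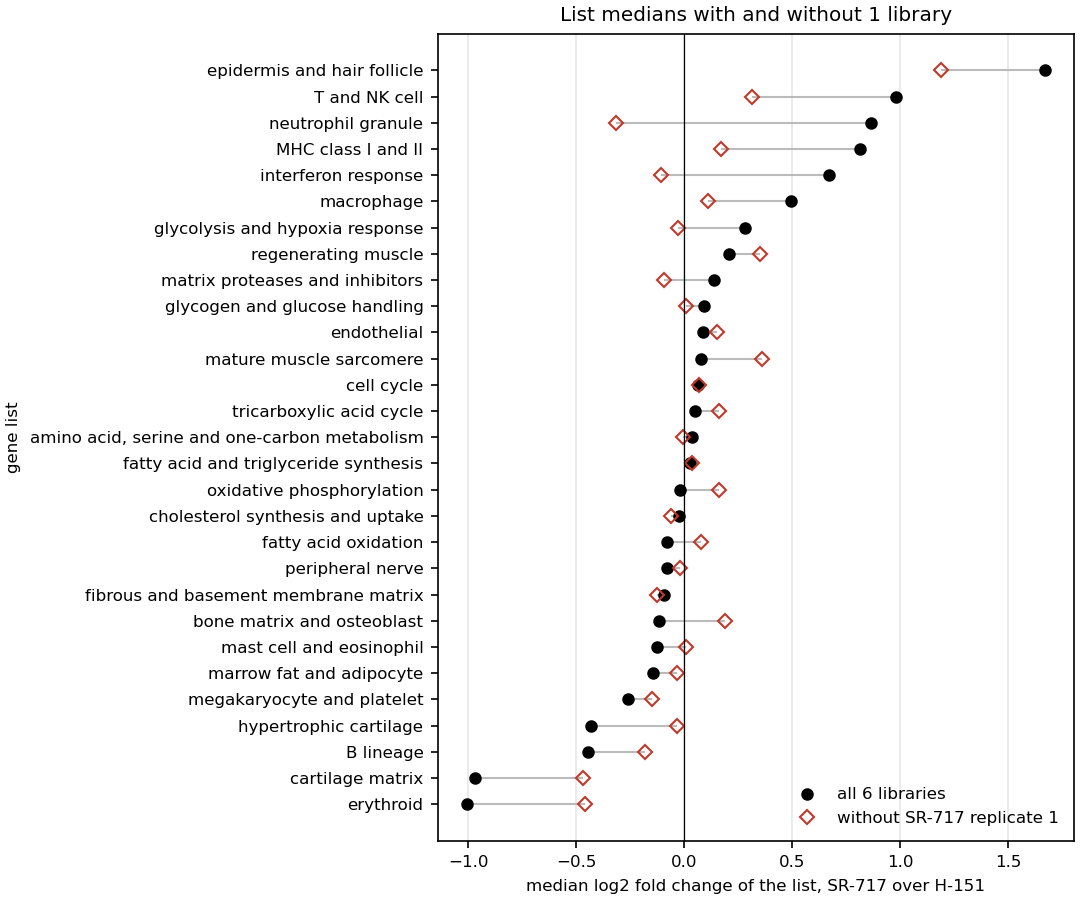
Median log2 fold change of SR-717 over H-151 (horizontal axis) for each gene list, with all 6 libraries (filled circles) and without SR-717 replicate 1 (open diamonds). The neutrophil median runs from 0.87 to −0.32, and the cell cycle median stays within 0.06 to 0.07.

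Genes outside the lists were separated by steps of different size. Btbd3, a BTB domain protein, had 21.9, 24.1 and 25.6 CPM with SR-717 and 35, 32.8 and 36.2 with H-151, and its log2 fold change was −0.54 (standard error 0.13), or −0.48 without SR-717 replicate 1. Kif5a, a kinesin motor known from neurons, had 1.08, 1.97 and 1.5 CPM against 4.04, 3.8 and 3.31, and its log2 fold change was −1.29 (standard error 0.30), or −1.09 without SR-717 replicate 1. Cyren, a regulator of DNA end joining, had 8.4, 8.66 and 9.32 CPM against 6.55, 5.24 and 6.91. Its log2 fold change was 0.50 with all 6 libraries and 0.53 without SR-717 replicate 1. Cry1, a repressor of the circadian clock, was the reverse case: it stood at 41.5, 14.6 and 13.9 CPM with SR-717 and at 10.4, 9.63 and 11.2 with H-151, so the gap was kept without replicate 1 but the log2 fold change went from 1.16 to 0.45.

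Some of the smallest p-values belonged to genes of very low level. Necab3, a calcium-binding protein gene, had 0.102, 0.0936 and 0.116 CPM with SR-717 and 0.492, 0.741 and 0.552 with H-151, and its SR-717 values amount to a few counts a library. Rab3b, Mapk10 and Ddn were lower, and Klk1 was higher, at levels of at most 1.44 CPM in these 6 libraries. Of the genes that met both criteria, 6 of the 31 higher and 19 of the 49 lower had a mean under 1 CPM. SR-717 replicate 1 was above the other SR-717 libraries by more than a factor of 2 in 14 of the 31 higher genes. No share over all tested genes stands beside these counts. They therefore do not show whether low levels or a high replicate 1 were more frequent here than elsewhere. Without SR-717 replicate 1, 23 of the 31 still had a fold change of at least 1.5 and 12 also an unadjusted p under 0.05 in edgeR. Of the 49 lower genes 43 and 26 did so. Past the thresholds in each of the 6 fits that left out 1 library were 9 of the 31 (AU041133, Gm4841, H2-Q6, H2ac19, Klk1, Myh8, Shisa3, Spic and Ugt1a1) and 7 of the 49 (Car12, Ddn, Kif5a, Lgr5, Mapk10, Rab3b and Sox5).

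The PBS libraries give a reference level for these genes. The PBS mean lay between the SR-717 and H-151 means for 25 of the 31 higher genes and 39 of the 49 lower genes. It lay beyond the H-151 mean for 3 and 9 of them, and beyond the SR-717 mean for 3 and 1. No test was made of these counts, and no share over all genes stands beside them. The genes were chosen for separate SR-717 and H-151 levels, which by itself favours a PBS mean between the groups.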

How the data were processed

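Total RNA of day 7 callus was sequenced by a service company as poly(A)-selected, strand-specific, paired-end libraries. The labels' extraction text speaks of cell lines, whereas their tissue field says bone. The authors deposited 1 table with expected counts (estimated reads per gene, not normalized, 8.91% of them not whole) and TPM values (scaled for gene length and library total). The build in the submitters' processing notes is mm10, and the aligner and counter are not given in the sources used here. KEGG annotation was read from the same table.

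Expected counts were rounded, filtered by edgeR's filterByExpr (a count of 10, a total of 15), scaled by TMM and tested with glmQLFit and glmQLFTest on the 6 libraries without covariates (edgeR 4.0.16, R 4.3.3). Standard errors were derived from the F statistic. CPM are TMM-normalized, and log2 CPM used a prior count of 2. Adjusted p-values follow Benjamini and Hochberg. The biological coefficient of variation was 0.336, and 0.210 without SR-717 replicate 1. No library was a copy of another (chi-square per gene of at least 25.8 for each pair). Of 733 genes in 29 lists, 731 were found and 697 tested. Members, lists and rules were chosen with earlier results of these data known. Named genes were drawn from the 12 in each direction with the widest gap at a mean of at least 1 CPM, list members past the thresholds, without overlap or among the 3 highest in TPM, and the 10 smallest p-values. Not every gene that met these rules is named in the text. Others were chosen after their values were seen. Positions are from GENCODE's GRCm38 annotation. The edgeR steps were tested on simulated data. Alternatives were DESeq2 1.42.0 (its size factors or its Wald test), the removal of the filter, a filter at a mean count of 50, a fit of all 9 libraries, a block for the replicate number, the omission of each library in turn and the TPM scale, which for list medians was added after the data were seen.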

Additional observations from a re-analysis of the deposited data

How the results depend on the processing

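At the study's thresholds, 147 genes were higher and 62 lower with DESeq2's Wald test, beside 52 and 55 in the main edgeR fit. Without a filter on low counts, 123 were higher and 100 lower. At a mean count of at least 50, 37 were higher and 24 lower. With all 9 libraries in 1 fit, 109 were higher and 62 lower, so the balance of directions depended on the method. Leaving out 1 library gave 19 to 544 higher and 36 to 170 lower genes, and 635 to 1224 genes without overlap above and 743 to 1514 below, since fewer libraries overlap less often. In the deposited TPM values 127 genes lay above without overlap. With the replicate number as a block (replicate block), 88 were higher and 55 lower, and 27 and 27 were shared with the fit without it. Same-numbered libraries deviated together with r of 0.347, 0.0734 and 0.0824, and the own number fitted best in 1 of 3. In each group, replicate 1 had the highest summed level of neutrophil and MHC genes and the lowest of oxidative phosphorylation genes. The sarcomere genes had no order shared by the groups. The labels do not say whether equal numbers share a batch, and this was not tested. Over the 6 fits that leave out 1 library, list medians ran from −0.092 (without SR-717 replicate 1) to 0.16 for matrix proteases, from −0.32 (without SR-717 replicate 1) to 1.28 for neutrophil genes, from 0.31 (without SR-717 replicate 1) to 1.31 for T and NK cell genes, from −0.031 (without SR-717 replicate 1) to 0.40 for glycolysis and from 0.17 (without SR-717 replicate 1) to 1.16 for MHC genes. They ran from −1.35 (without SR-717 replicate 2) to 0.075 for B lineage and from −1.35 (the same omission) to −0.12 for megakaryocyte genes, from 0.0023 (without SR-717 replicate 3) to 0.35 for regenerating muscle and from −0.18 (the same omission) to 0.12 for fatty acid synthesis. The epidermis list, with 14 genes tested at low levels and a median of 1.67, ran from 0.99 to 2.74 (without H-151 replicate 1) and was at 0.55 at a mean count of at least 50. The cause of these shifts was not tested. Having 3 libraries a side limits what can be called. Without SR-717 replicate 1, and so with fewer libraries, edgeR's test also called 0 genes at an adjusted p under 0.05.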

Other observations

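Epidermis and hair follicle genes, a list of tissue that a callus should lack, were positive in 14 of 14 tested genes, with a median log2 fold change of 1.67 (1.19 over the 13 genes tested without SR-717 replicate 1), 0 past the thresholds, and 14 of the 28 genes listed were too low to be tested. Genes this low can pass the count filter through the libraries where they are high. The shared sign and the size of the median may come in part from that filter, so no conclusion is drawn from them. Krt71, a keratin of the inner hair sheath chosen after its values were seen, had 3.07, 0.374 and 10.2 CPM with SR-717, 2.26 CPM in H-151 replicate 1 and 0 in H-151 replicates 2 and 3 and in all 3 PBS libraries. The summed level of the list was 54.8, 30.3 and 60.3 CPM with SR-717, 36.6, 21.5 and 20.9 with H-151, and 27.1, 23.1 and 20.1 with PBS. The part of these genes in the differences between groups was not tested.

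Gap43, a growth protein of axons, was the 1 nerve gene without overlap, with 1.43, 1.12 and 1.68 CPM with SR-717 and 2.02, 1.78 and 2.15 with H-151. Robo4, a guidance receptor of endothelial cells, was the 1 endothelial gene without overlap, with 44.8, 49.5 and 50.9 CPM with SR-717 and 38.1, 34.1 and 41.3 with H-151. Its log2 fold change was 0.36 (standard error 0.13), and 0.41 without SR-717 replicate 1.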
